A study of Mus musculus with 23 samples.

Results

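Clca4b, Sprr1a and Psca are epithelial genes whose signal in the colon of wild-type (WT) mice was more than 6-fold higher on a heme diet than on a control diet and which lie outside antioxidant and lipid metabolism. They were chosen by that WT difference in signal, with a limit to epithelial genes and the exclusion of those pathways. They are 3 genes out of 18820 with a measured value, each read from the brightest probe set that carries its name alone. In WT mice 9 genes (0.0478%) were over 6-fold higher on heme, and the other members of that group were Fabp1, Hmox1, Cyp4a31, Mcpt2, Slc7a11 and Akr1b8. Just above the limit lay Psca at 6.69-fold, Akr1b8 at 7.60-fold and Sprr1a at 8.33-fold, and just below it lay Abcc2 at 5.81-fold, Apoc2 at 5.54-fold and Pdk4 at 5.18-fold. The WT heme values of Clca4b, Sprr1a and Psca are therefore a description, and the KO mice, which the rule of choice did not use, carry the test. Earlier results of these data were known when the genes were chosen, so the test in KO mice was not blind to the data. The arrays hold whole mucosal scrapings, so in which layer of the epithelium the genes are expressed, and whether the tissue was injured, cannot be read from them. The study itself describes a ruffled surface epithelium in stained colon sections of heme-fed mice of both genotypes.

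Gene expression was measured in the colon of 23 male mice, 1 Affymetrix Mouse Gene 1.1 ST array per mouse, to ask what the receptor PPARα does in the response to dietary heme. The groups were PPARα knockout (KO) mice on heme (n = 6), KO mice on the control diet (n = 6), WT mice on heme (n = 6) and WT mice on the control diet (n = 5, after the authors left out 1 array for its quality). All mice were 7 to 9 weeks old at the start and ate a Westernized purified diet with 40 energy% fat and 30 µmol calcium per g for 14 days, to which the heme diet added 0.5 µmol heme per g. Proximal and distal scrapings were pooled within a mouse. KO mice were 129S4/SvJae-Pparatm1Gonz/J and WT mice 129S1/SvImJ, so that an effect of genotype and one of substrain cannot be told apart here. Ppara, the gene disrupted in KO mice, had log2 signals of 7.35 to 7.89 in KO heme mice, against 8.43 to 8.89 in WT heme mice, and of 7.91 to 8.56 in KO control mice, against 8.80 to 9.13 in WT control mice, and whether its probes lie in the disrupted part was not examined. Values are log2 signals. A call required an adjusted p under 0.01 (limma, Benjamini-Hochberg over all 18820 genes) and a mean linear signal above 20 in a compared group.

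The 3 genes belong to different protein families. Clca4b belongs to the Clca family of secreted and membrane-bound proteins, named for their effect on calcium-activated chloride currents, and the family member Clca1 is a goblet cell product found in mucus. Sprr1a is a small proline-rich protein that transglutaminases cross-link into the cornified envelope beneath the plasma membrane of keratinocytes, and it is also known as a stress-induced gene in tissues that do not cornify. Psca, prostate stem cell antigen, is a GPI-anchored surface protein of the Ly6/uPAR family, known from epithelia of bladder, prostate and stomach.

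The upstream sequences of the genes are shown as a description, since their common rise on heme in WT mice followed from the choice. Clca4b and Sprr1a matched the RefSeq promoter table of build GRCm38.p6 and Psca did not. The 250 bases before the start site are chr3:144932530-144932779 for Clca4b and chr3:92485882-92486131 for Sprr1a, both on the minus strand and both printed in the direction of the gene, with capitals for matches to the AP-1 motif TGANTCA and to TATAAA, in either orientation.
Clca4b: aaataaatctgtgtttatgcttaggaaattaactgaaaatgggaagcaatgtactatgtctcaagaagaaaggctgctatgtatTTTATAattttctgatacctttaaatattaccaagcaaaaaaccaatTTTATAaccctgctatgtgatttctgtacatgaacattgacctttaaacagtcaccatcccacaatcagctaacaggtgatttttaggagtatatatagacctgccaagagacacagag
Sprr1a: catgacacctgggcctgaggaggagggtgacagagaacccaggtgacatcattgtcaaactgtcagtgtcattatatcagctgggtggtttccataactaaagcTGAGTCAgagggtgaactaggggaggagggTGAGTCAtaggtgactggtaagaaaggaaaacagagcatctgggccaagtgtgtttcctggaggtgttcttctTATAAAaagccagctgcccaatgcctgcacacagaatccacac
Sprr1a held 2 AP-1 matches, which began 146 and 116 bases before the start, and 6.75% of 32851 promoters of this length held at least 1. It held TATAAA 43 bases before the start, a motif found in 12.4% of promoters. A match to the antioxidant response element TGACNNNGC (10.2% of promoters) ran on the opposite strand from 148 to 140 bases before the start and overlapped the first AP-1 match. Clca4b held no AP-1 or antioxidant response element match, and its 2 TATAAA matches lay on the opposite strand, 166 and 119 bases before the start, where they read TTTATA. Neither window held the PPAR element AGGTCANAGGTCA, which 0.0335% of promoters held. Only matches to these motifs were sought, so the stretch tatatata close to the start of Clca4b carries no capitals. The matches describe the letters of the windows and were not tested as binding sites.

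In KO mice, which lack the receptor, all 3 genes rose on heme. Clca4b had log2 signals of 11.52 (lowest), 11.97 (median) and 12.60 (highest) in KO heme mice, against 6.97, 8.16 and 10.77 in KO control mice. The heme-fed mice spanned a 2.11-fold range of linear signal and the control mice a 14.0-fold range, where replicate 3 stood at the highest value and left a gap of only 0.75 to the lowest heme-fed mouse. The log2 fold change of Clca4b was 3.53 (SE 0.413, 95% CI 2.67 to 4.38), or 11.5-fold, with a limma adjusted p of 1.69e-06 and a two-sided exact permutation p of 0.00216 (n = 6 each), the smallest p these group sizes allow. In a scraping, more cells of a type and more RNA per cell cannot be told apart.

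Sprr1a had log2 signals of 10.24, 10.76 and 10.98 (lowest, median and highest) in KO heme mice, against 7.01, 7.88 and 8.44 in KO control mice. The groups were 1.80 apart at their nearest mice. The log2 fold change of Sprr1a was 2.88 (SE 0.226, 95% CI 2.42 to 3.35), or 7.38-fold (limma adjusted p = 3.99e-09, two-sided exact permutation p = 0.00216). Psca had log2 signals of 9.05, 9.26 and 9.69 in KO heme mice, against 6.39, 6.77 and 7.02 in KO control mice. Its groups were the tightest, with SDs of 0.268 in KO heme mice and 0.210 in KO control mice, and were 2.03 apart at their nearest mice. The log2 fold change of Psca was 2.56 (SE 0.152, 95% CI 2.24 to 2.87), or 5.89-fold (limma adjusted p = 1.03e-10, two-sided exact permutation p = 0.00216). Among all genes 18.4% were called for the KO heme effect, 9.23% as higher and 9.2% as lower, and in 7.3% every heme-fed KO mouse lay above every control KO mouse, as it did for Clca4b, Sprr1a and Psca. Ordered by fold change among 14272 genes with a signal above 20, Clca4b was the 1st, Sprr1a the 6th and Psca the 12th in KO mice, and 11 genes (0.0584%) were over 6-fold higher, Psca not among them.

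**Figure D1:**
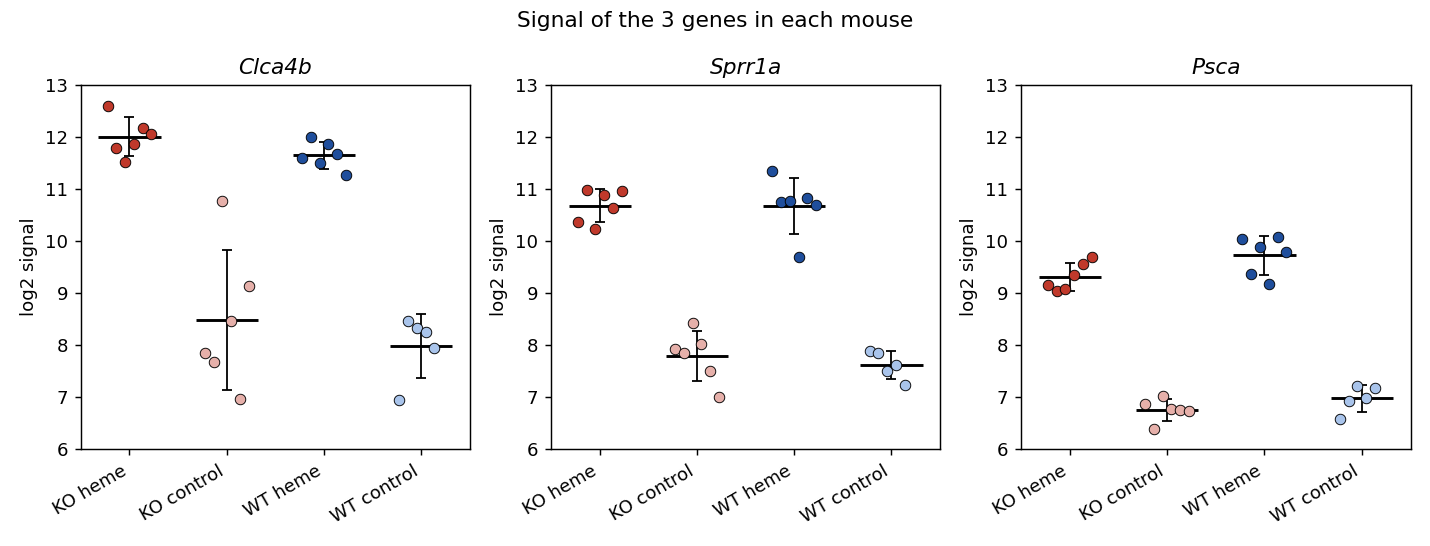
Log2 signal of Clca4b, Sprr1a and Psca (vertical axes) in the 4 groups, with 1 point per mouse, group means as horizontal lines and SD as error bars. Heme-fed mice lie above all control mice of their genotype for each gene, and KO control replicate 3 is the control mouse nearest to the heme-fed ones for Clca4b, at 10.77.

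The WT values made the choice and are a description. Clca4b had log2 signals of 11.27, 11.63 and 12.00 (lowest, median and highest) in WT heme mice, against 6.95, 7.94, 8.25, 8.34 and 8.47 in the 5 WT control mice, a log2 difference of 3.66 (SE 0.433), or 12.7-fold. Sprr1a had 9.70, 10.76 and 11.36 in WT heme mice, against 7.24, 7.51, 7.61, 7.85 and 7.89 in WT control mice, a log2 difference of 3.06 (SE 0.237). Psca had 9.18, 9.84 and 10.09 in WT heme mice, against 6.58, 6.92, 6.99, 7.19 and 7.22 in WT control mice, a log2 difference of 2.74 (SE 0.160). The nearest mice of both diets were 2.80 apart for Clca4b, 1.81 for Sprr1a and 1.96 for Psca. Over all genes 17.9% were called in this contrast, 9.6% as higher and 8.29% as lower, and in 8.21% all heme-fed WT mice lay above all control WT mice.

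The comparisons of KO with WT mice on either diet use WT values that entered the choice, so for the 3 genes they are a description with no p. On heme, Clca4b was 0.35 higher on the log2 scale in KO mice (95% CI -0.50 to 1.21), with 3 of 6 KO mice above every WT mouse. Sprr1a differed by -0.0034 (95% CI -0.47 to 0.46), by 0.13 without WT heme replicate 1, the highest WT heme mouse, and by -0.20 without WT heme replicate 4, the lowest. Psca was 0.41 lower on the log2 scale, or 1.33-fold, with 3 of 6 KO mice below every WT mouse (difference -0.41, 95% CI -0.72 to -0.093). This interval is not adjusted for the number of genes and is not a test. A choice by high WT heme values can also push KO minus WT below 0. Of all genes 44 (0.234%) were called for KO against WT on heme, with Clca4b, Sprr1a and Psca not among them.

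On the control diet KO minus WT was 0.49 for Clca4b (95% CI -0.41 to 1.39), 0.17 for Sprr1a (95% CI -0.32 to 0.66) and -0.22 for Psca (95% CI -0.55 to 0.11), and of all genes 10 (0.0531%) were called. The Clca4b value rested on KO control replicate 3 and was 0.031 without it. The heme effect in KO mice minus that in WT mice was -0.14 for Clca4b (95% CI -1.38 to 1.10), -0.17 for Sprr1a (95% CI -0.85 to 0.50) and -0.19 for Psca (95% CI -0.64 to 0.27). For Clca4b it turned to 0.32 without KO control replicate 3 and to 0.12 without WT control replicate 1, and was also above 0 in a two-way analysis of linear signal. Since it contains the WT contrast, it has no p here. The intervals cover 0 and differences in both directions, so they do not show that the genotypes were alike. Over all genes limma called 2 (0.0106%) for this difference, with 1271 at an unadjusted p under 0.05. Psca had the narrowest interval of the 3 genes.

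Clca4b varied most among mice on the control diet. Its SD was 1.34 in KO control mice, where the linear signal ran from 125 to 1746, a 14.0-fold range, against an SD of 0.615 in WT control mice. In heme-fed mice the SD of Clca4b was 0.371 in KO mice and 0.260 in WT mice. Without KO control replicate 3 the heme effect of Clca4b in KO mice was 3.98, and over all mice left out in turn it lay between 3.22 and 3.98. The same mouse was the highest KO control mouse for Clca4a at 10.55, for Duoxa2, a maturation factor of an epithelial peroxide-producing oxidase, at 8.58, and for Psmb9, an immunoproteasome subunit, at 8.73, where the medians of the KO control mice were 9.65 for Clca4a, 7.43 for Duoxa2 and 7.77 for Psmb9. For Sprr1a and Psca it was also the highest KO control mouse, at 8.44 and 7.02.

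WT heme replicate 1 stood apart from the other heme-fed mice. It was the highest mouse for 16 of 20 measured markers of squamous epithelium, which lines the anal canal, and their summed linear signal was 1294 there, against 617 to 717 in the other WT heme mice. The sums were 626 to 718 in KO heme mice, 595 to 653 in KO control mice and 582 to 645 in WT control mice, with overlap between the diets in KO mice. Krt10 had a log2 signal of 7.23 in WT heme replicate 1 and Krtdap, a keratinocyte differentiation product, 6.78, while the highest KO heme mice had 5.09 and 3.77 for these genes. This mouse had the highest Sprr1a signal, 11.36, and also a high Sprr1b signal, 6.23, while the other heme-fed WT mice had 4.30 to 4.74. The WT heme effect of Sprr1a was 2.92 without it, that of Psca 2.68 and that of Clca4b 3.67, and its own values for Clca4b (11.60) and Psca (10.03) lay within the range of the other heme-fed WT mice. In KO mice limma called 0 of 20 squamous markers for the heme effect, with 3 at an unadjusted p under 0.05, beside 18.4% of all genes. When WT heme replicate 1 was left out of the fit, 1 was called higher and 1 lower, and 1 was called lower without WT control replicate 3, KO control replicate 2 or KO heme replicate 6. Krt13 had the largest difference in KO mice with all arrays in the fit, 0.58 (limma adjusted p = 0.0395). In WT mice Krt13 was the 1 marker called, beside 17.9% of all genes, at 0.82, and had 0.57 without WT heme replicate 1. Its WT call was lost when any of the 5 WT control mice, WT heme replicate 3 or WT heme replicate 5 was left out (0.78 to 0.84, adjusted p = 0.0104 to 0.0175). The part of squamous cells in the Sprr1a signal was not tested.

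**Figure D2:**
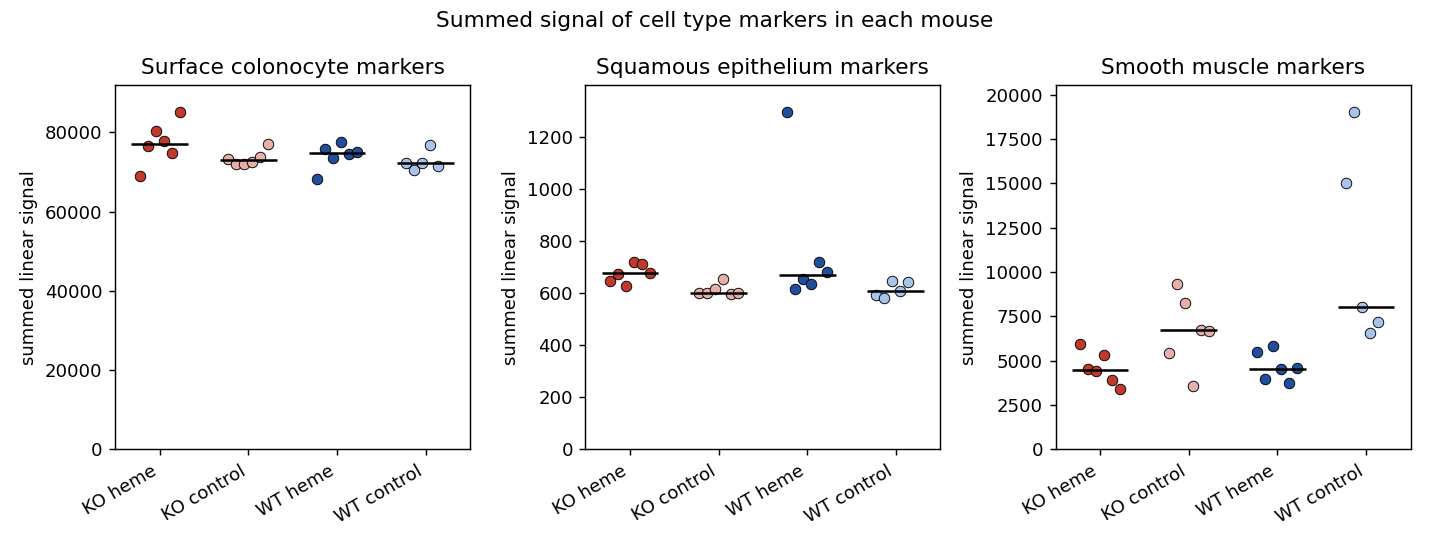
Summed linear signal (vertical axes, from 0) of surface colonocyte, squamous epithelium and smooth muscle markers in the 4 groups, with 1 point per mouse and the group median as a line. WT heme replicate 1 lies apart at 1294 for squamous markers, and 2 WT control mice lie at 15030 and 19022 for smooth muscle markers.

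The lists below were written from general knowledge, but with earlier results of these data known. They are described by counts, which stand beside the 18.4% of all genes called on heme in KO mice and the 17.9% in WT mice. Because of that knowledge, a list share above these values is a description and not a test. In the Clca family 5 of 7 other genes were measured, and 1 was called higher and 1 lower on heme in KO mice, and likewise in WT mice, which is 40% of this small list. Clca4a, the nearest relative of Clca4b and its neighbour on the chromosome, had log2 signals of 11.33, 11.43 and 11.72 (lowest, median and highest) in KO heme mice, against 9.14, 9.65 and 10.55 in KO control mice. It rose by 1.72 on the log2 scale in KO mice (SE 0.169, limma adjusted p = 1.40e-07) and by 1.72 in WT mice (SE 0.178, limma adjusted p = 3.44e-07). A further probe set that matches both Clca4a and Clca4b rose by 1.93 in KO mice (limma adjusted p = 1.27e-07) and by 1.69 in WT mice, and signal of these related genes could be split differently by other probes. Clca1, the goblet cell member, fell by 0.63 in KO mice and by 0.55 in WT mice, with KO heme mice at 12.04 to 12.76, against 12.98 to 13.14 in KO control mice. Clca3a1 and Clca3b were not called, with log2 differences of 0.053 and 0.0033 in KO mice, and Clca2 had a mean linear signal under 20 in every group. The heme effects of these 5 genes had a median of 0.0033 in KO mice, beside -0.0082 over all genes.

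Of the other cornified envelope genes 22 of 26 were measured, 14 of them with a signal above 20, and 2 were called higher and 1 lower on heme in KO mice, as in WT mice. That is 13.6% of the list in either genotype, a share no higher than the 18.4% (KO) and 17.9% (WT) of all genes. Their median log2 difference was 0.071 in KO mice and 0.14 in WT mice. Sprr2h, a small proline-rich protein, rose by 0.83 in KO mice (limma adjusted p = 9.03e-05) and differed by 0.20 in WT mice (adjusted p = 0.334). Its log2 signals were low, 3.91 to 5.05 in KO heme mice, against 3.57 to 3.87 in KO control mice. Tgm5, a transglutaminase of keratinocytes, rose by 0.62 in KO mice and 0.69 in WT mice. Tgm3, another transglutaminase that cross-links envelope proteins, fell by 1.28 in KO mice (SE 0.335, limma adjusted p = 0.00554) and by 2.24 in WT mice (SE 0.352, limma adjusted p = 5.20e-05), opposite to Sprr1a. The KO call of Tgm3 was lost when any of 7 KO mice was left out (all but KO control replicates 1 and 3 and KO heme replicates 3, 4 and 6), with log2 differences of -1.29 to -1.15 and adjusted p of 0.0101 to 0.018. The lowest Tgm3 signal of all mice, 7.55, was that of WT heme replicate 1, without which the WT difference was -1.90. Sprr1b, the closest relative of Sprr1a, was called in WT mice at 0.81 (adjusted p = 0.00591), and at 0.53 without WT heme replicate 1 (adjusted p = 0.000225), but not when any 1 of the 5 WT control mice was left out (0.80 to 0.83, adjusted p = 0.0115 to 0.0132). In KO mice its log2 difference was 0.69 and missed the threshold (adjusted p = 0.0133), while it passed when WT heme replicate 1 was left out of the fit (adjusted p = 4.13e-06). Its mean linear signal was 23.5 in KO heme mice, against 14.5 in KO control mice, and the probe set common to Sprr2a1, Sprr2a2 and Sprr2a3 had a log2 mean of 13.45 in KO heme mice, against 13.47 in KO control mice, and was not called.

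Of the other Ly6 family genes 29 of 36 were measured, and 9 were called higher and 1 lower on heme in KO mice, with 8 higher and 1 lower in WT mice. These are 34.5% of the list in KO mice, beside 18.4% of all genes, and 31% in WT mice, beside 17.9%. Without KO control replicate 5 the number lower in KO mice was 2. With 1 array left out in turn, the number higher was 6 to 10 in KO mice and 6 to 10 in WT mice, so both shares depend on single arrays. The median log2 difference of the family was 0.12 in KO mice and 0.065 in WT mice, over members that went in both directions, and 14 of 29 had an unadjusted p under 0.05 in each genotype. Ly6m had log2 signals of 10.09, 10.54 and 10.88 (lowest, median and highest) in KO heme mice, against 7.63, 7.99 and 8.56 in KO control mice, with no overlap. Ly6m rose by 2.39 in KO mice (SE 0.187, limma adjusted p = 3.99e-09) and by 1.86 in WT mice. Plaur, the urokinase receptor, had 7.82, 8.29 and 9.20 in KO heme mice, against 6.30, 6.45 and 6.71 in KO control mice. It rose by 1.92 in KO mice (limma adjusted p = 2.55e-06) and by 1.22 in WT mice, where the highest signal, 8.69, was that of WT heme replicate 1, and by 0.99 without that mouse. Ly6d, a surface marker of keratinocytes and early B cells, rose by 1.77 in KO mice and 1.43 in WT mice, and Ly6g6c by 1.77 in KO mice and 2.00 in WT mice. Lypd6, a modulator of Wnt signalling, fell by 0.64 in KO mice and 0.56 in WT mice. For KO against WT on heme limma called 0 relatives in the 3 families, with 0 Clca, 2 cornified envelope and 7 Ly6 genes at an unadjusted p under 0.05.

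**Figure D3:**
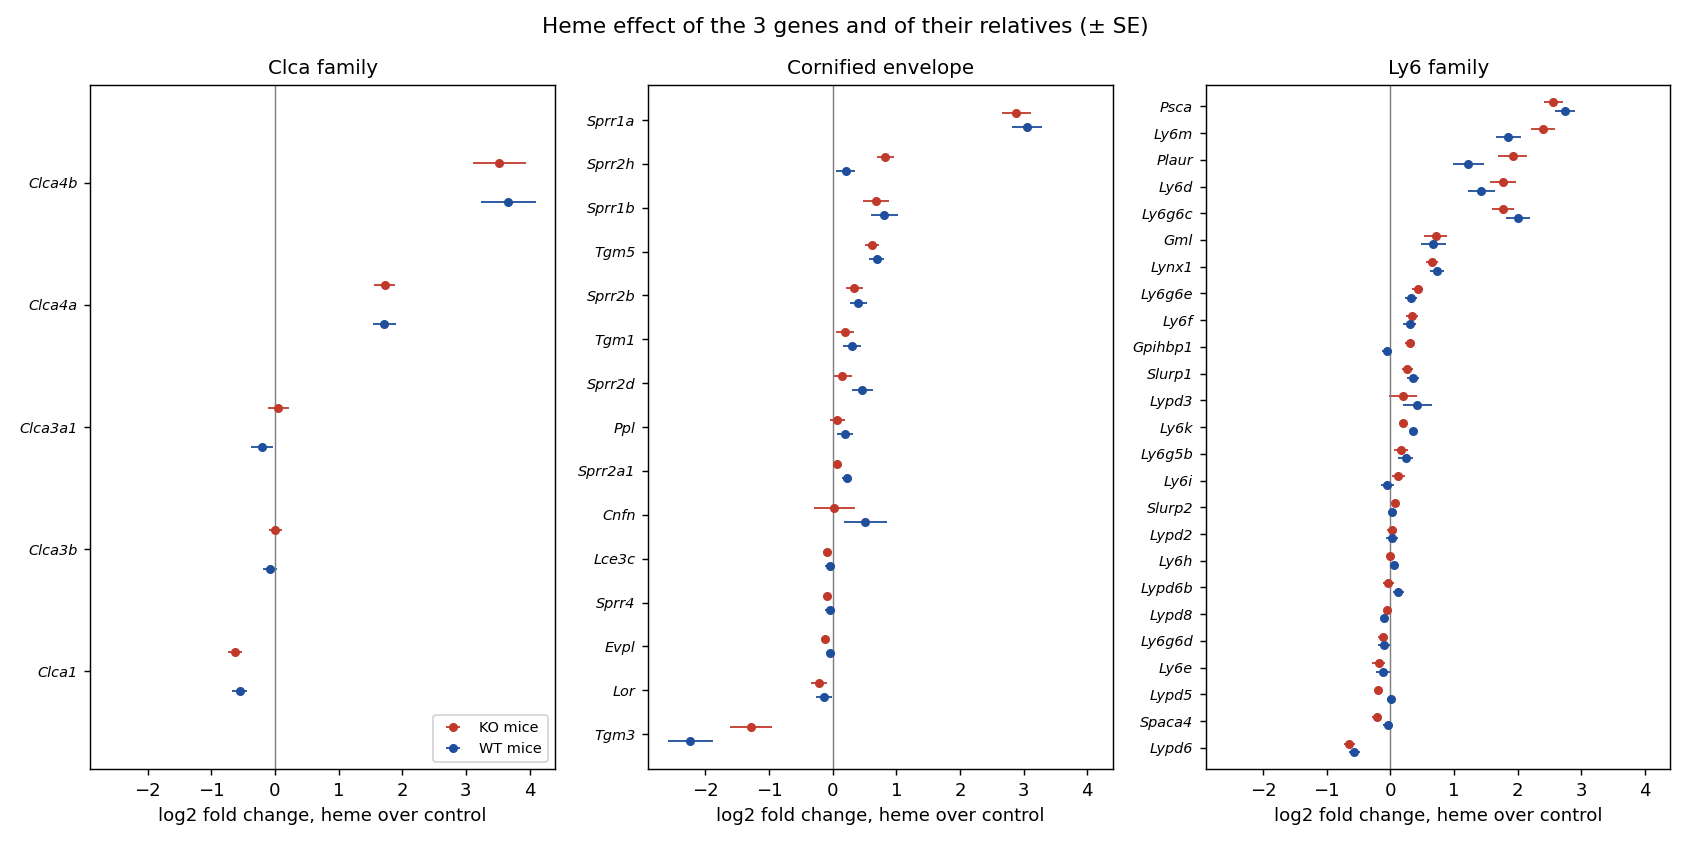
Log2 fold change on heme (horizontal axes, ± SE) in KO mice (red) and WT mice (blue) for Clca4b, Sprr1a and Psca, each at the top of its family, and for the relatives with a linear signal above 20. Clca4b and Sprr1a lie apart from their relatives, which in WT mice follows from the choice of genes over 6-fold higher. Tgm3 lies at -1.28 in KO mice and -2.24 in WT mice, and Ly6m at 2.39 in KO mice is the relative nearest to Psca.

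Neighbouring genes did not all move with the 3 genes. Among the 5 genes on each side, named here after their values were seen, 9 were measured for each gene, and 3 around Clca4b, 1 around Sprr1a and 1 around Psca were called in KO mice, beside 18.4% of all genes. Around Clca4b these were Selenof, a selenoprotein of the endoplasmic reticulum, at 0.15, Clca4a at 1.72 and Clca1 at -0.63. Around Sprr1a it was Sprr2h, whereas the adjacent Sprr3 and Sprr4 had log2 differences of -0.00099 and -0.092. Around Psca it was Lynx1, a Ly6 family gene, at 0.65. Arc, an immediate early gene close to Psca, had a log2 difference of 1.22 that missed the threshold (adjusted p = 0.0141), and its log2 signal of 8.10 in KO heme replicate 4 stood far above the 5.08 of KO heme replicate 3.

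Of the list of epithelial injury response genes 39 of 44 were measured, and 12 were called higher and 2 lower on heme in KO mice, against 6 higher and 3 lower in WT mice. These are 35.9% of the list in KO mice, beside 18.4% of all genes, and 23.1% in WT mice, near the 17.9% of all genes. Its median log2 difference was 0.23 in KO mice and 0.023 in WT mice. Trim29, a gene of stratified epithelium, had log2 signals of 6.69, 7.99 and 8.26 (lowest, median and highest) in KO heme mice, against 5.54, 5.63 and 5.99 in KO control mice. It rose by 2.02 in KO mice (limma adjusted p = 3.24e-05) and by 1.84 in WT mice, and by 1.55 in WT mice without WT heme replicate 1. Cldn4, a tight junction protein, rose by 1.05 in KO mice and had a log2 difference of 0.57 in WT mice (adjusted p = 0.0258), which passed at 0.69 without WT heme replicate 6 (adjusted p = 0.00798). Duoxa2 rose by 0.98 in KO mice and had a log2 difference of 0.43 in WT mice (adjusted p = 0.191). Of the 39 genes limma called 0 for the difference of the heme effects, with 3 at an unadjusted p under 0.05, so that the genotypes were not shown to differ in these genes. Il33, an alarmin of epithelial nuclei, fell by 0.78 in KO mice and by 0.90 in WT mice, and Gsdmc2, a gasdermin of the gut epithelium, by 1.01 in KO mice and 1.06 in WT mice. Clu was called lower in WT mice only. With 1 array left out in turn, its log2 difference in WT mice was -0.90 to -0.77 (limma adjusted p = 0.000237 to 0.0240). In KO mice it was -0.61 to -0.22.

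Other cell types of the scraping were followed through their markers. Of 21 surface colonocyte markers 6 were called higher and 1 lower on heme in KO mice, and 7 higher and 2 lower in WT mice. These are 33.3% of the list in KO mice, beside 18.4% of all genes, and 42.9% in WT mice, beside 17.9%. The number lower in KO mice was 0 without KO control replicate 2, 4 or 6 or KO heme replicate 2, 3 or 5, 2 without WT heme replicate 1, 2 or 4 and 3 without KO heme replicate 6, and that in WT mice was 4 without WT heme replicate 4 or KO heme replicate 1. Aqp8, a water channel of the colonic surface, had log2 signals of 12.04, 12.12 and 12.34 in KO heme mice, against 10.70, 10.96 and 11.44 in KO control mice, a rise of 1.13 in KO mice beside 1.12 in WT mice. Alpi, intestinal alkaline phosphatase, rose by 0.85 in KO mice and 1.36 in WT mice, and Krt20 by 0.47 in KO mice and 0.50 in WT mice. Slc9a3 was also called higher in both genotypes and Tmigd1 in WT mice. Muc3 was called lower in both genotypes and Ceacam20 in WT mice. With 1 array left out in turn, Muc3 differed by -0.17 to -0.13 in KO mice and -0.25 to -0.22 in WT mice. In the same fits Ceacam20 differed by -0.66 to -0.49 in WT mice. The list had a median log2 difference of 0.028 in KO mice (-0.38 to 1.13) and 0.032 in WT mice (-1.16 to 1.36). The summed linear signal of the list was 69020 to 85194 in KO heme mice, against 72031 to 77004 in KO control mice, with overlap. The part of surface colonocytes in the signal of Clca4b, Sprr1a and Psca was not tested. Of 9 goblet cell markers 1 was called higher (Spink4) and 3 lower (Clca1, Tff3 and Muc2) in KO mice, and 0 higher and 3 lower in WT mice (Clca1, Sytl2 and Tff3). The WT call of Tff3 lay at the threshold (limma adjusted p = 0.00997) and was lost in 18 of the 23 fits that left out 1 array, all but those without WT control replicate 1 or 2, WT heme replicate 4 or KO heme replicate 3 or 5 (log2 differences of -0.21 to -0.17). The WT call of Sytl2, a vesicle trafficking gene, was lost in 8 of them, those without WT control replicates 1 to 4 or WT heme replicates 1, 3, 5 or 6 (-0.26 to -0.22, adjusted p = 0.0104 to 0.0255), and the number lower in WT mice was 1 without WT control replicate 3 or 4 or WT heme replicate 1, 3, 5 or 6. These goblet counts are 44.4% of the list in KO mice, beside 18.4% of all genes, and 33.3% in WT mice, beside 17.9%. Of 7 gastric surface markers, of interest because Psca is known from stomach, limma called 0 in KO mice and 0 in WT mice, with 0 and 1 at an unadjusted p under 0.05, and 1 in WT mice without WT heme replicate 4 or KO heme replicate 1. The largest log2 difference in KO mice was 0.17, for Muc6, and Gkn2, Gkn3 and Muc5ac stayed under a linear signal of 20. Of 9 neutrophil markers Mmp9 alone (11.1% of the list) was called higher in KO mice, by 0.86, and limma called 0 in WT mice, with 1 at an unadjusted p under 0.05, while S100a8 stayed under a linear signal of 20.

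Smooth muscle markers had lower values on heme in both genotypes, and most calls were made in WT mice. Of 12 markers 1 was called lower on heme in KO mice (Mylk, which fell by 0.37, and by 0.33 with no call without KO control replicate 2 or without KO heme replicate 5) and 11 in WT mice, led by Des, which fell by 1.67, and Cnn1, which fell by 1.63. These are 8.33% of the list in KO mice, beside 18.4% of all genes, and 91.7% in WT mice, beside 17.9%. Without KO control replicate 4 the number called in KO mice was 2, and with 1 array left out in turn that in WT mice was 8 to 11. The log2 differences in KO mice ran from -0.77 to -0.030 (median -0.53), with 6 of 12 at an unadjusted p under 0.05. In WT mice they ran from -1.67 to -0.24 (median -1.19). The control groups also differed, with a median log2 difference of KO minus WT on the control diet of -0.67, 11 of 12 at an unadjusted p under 0.05 and 0 called by limma, and 0 of 12 were called for the difference of heme effects, with 3 at an unadjusted p under 0.05. Their summed linear signal was 3423 to 5949 in KO heme mice, against 3589 to 9322 in KO control mice, and 3767 to 5842 in WT heme mice, against 6583 to 19022 in WT control mice, where replicates 1 and 2 had 15030 and 19022. Without WT control replicate 2 the WT heme effects were 3.78 for Clca4b, 3.12 for Sprr1a and 2.73 for Psca, and without WT control replicate 1 they were 3.40, 3.13 and 2.64 in the same order. The part of muscle in the differences was not tested.

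Within a group no relation between the 3 genes passed the adjusted test. Over 3 pairs of genes in the 3 groups of 6 mice, 9 relations were computed with two-sided exact permutation tests. The strongest was Sprr1a with Psca in WT heme mice (Pearson r = 0.785, exact permutation p = 0.0306, adjusted p = 0.275, and Spearman rho = 0.886, exact permutation p = 0.0333, adjusted p = 0.300, n = 6). Without the 2 mice farthest from the median of Sprr1a its r was 0.418 over the 4 that remained, and leaving out 1 mouse at a time gave 0.454 to 0.931. In KO heme mice r was 0.406 for the same pair (exact permutation p = 0.411, adjusted p = 0.656). Clca4b with Sprr1a gave -0.102 in KO heme mice and -0.330 in WT heme mice. Clca4b with Psca gave 0.290 in KO heme mice, 0.576 in KO control mice and -0.631 in WT heme mice (exact permutation p = 0.192, adjusted p = 0.650).

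**Figure D4:**
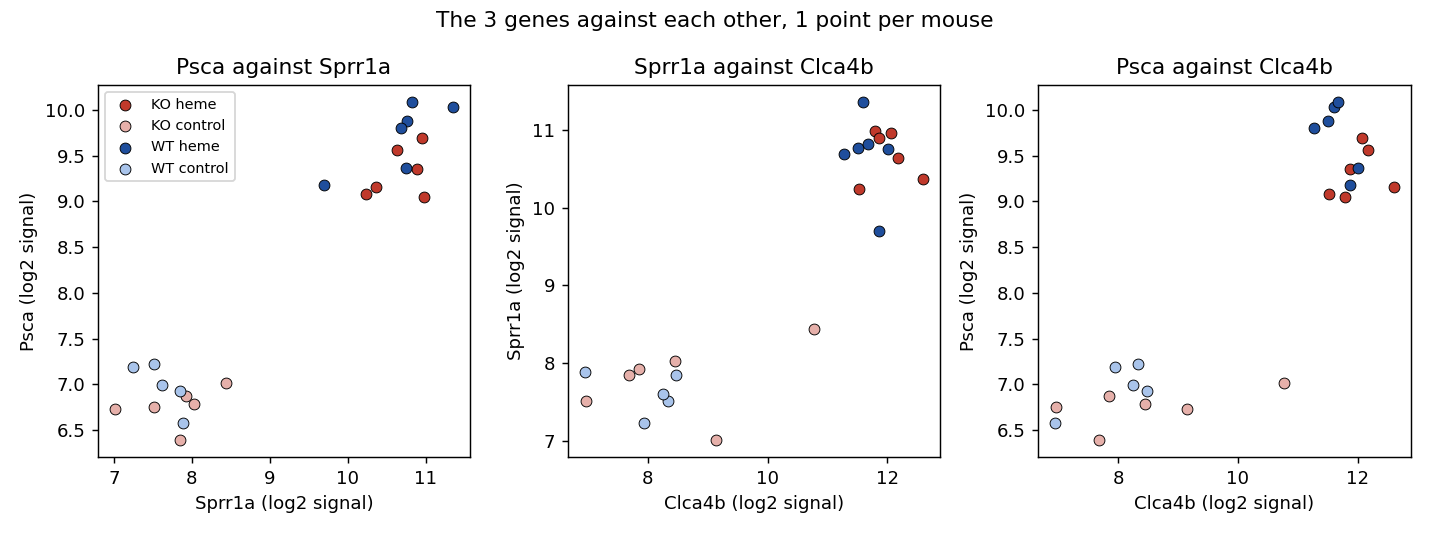
Clca4b, Sprr1a and Psca plotted against each other as log2 signals, with 1 point per mouse and colours for the 4 groups. Heme-fed and control mice form separate clouds in each panel, KO control replicate 3 lies between them at a Clca4b signal of 10.77, and within the clouds no relation passed the test.

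The genes most like each member over the 23 arrays were found by Pearson r among 14390 other genes with a signal above 20, as a description that mainly reflects the common split by diet. For Clca4b they were Slpi, an epithelial protease inhibitor (r = 0.949), Clca4a (0.948), Aqp8 (0.941), Slc6a9, a glycine transporter (0.939), and Pla2g5, a secreted phospholipase (0.939). For Sprr1a they were Cystm1 (0.983), Tmem253 (0.974), Txnrd1, a thioredoxin reductase (0.974), Slpi (0.972) and Bak1, an apoptosis effector (0.972). For Psca they were Srxn1, a sulfiredoxin (0.985), Ndufb6, a complex I subunit (0.984), Gclc, the catalytic subunit of glutathione synthesis (0.980), Akr1b8, an aldo-keto reductase (0.979), and Txnrd1 (0.975). Slpi had log2 signals of 9.43, 9.83 and 10.10 (lowest, median and highest) in KO heme mice, against 7.48, 7.89 and 8.25 in KO control mice. Psca and Sprr1a correlated at 0.959, and Clca4b with them at 0.907 and 0.908.

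When each array was set against its group mean, which removes diet and genotype, other genes came first. For Clca4b these were Lap3, an aminopeptidase (r = 0.788), Psmb9 (0.777), Duoxa2 (0.776), Defa31, a defensin (0.749), and Zc3h12a, an RNase that limits cytokine messages (0.736), and the values were 0.377, 0.489, 0.532, 0.217 and 0.471 without the 2 arrays farthest from the median, KO control replicate 3 among them. For Sprr1a they were Sfn, an epithelial 14-3-3 protein (0.816, and 0.799 without 2 arrays), Cystm1 (0.796, and 0.659), Hsp90aa1, a chaperone (0.795, and 0.668), Arcn1, a coatomer subunit (0.793, and 0.714), and Pcbd1 (0.786, and 0.608). For Psca they were Hsd17b7 and Sqle, enzymes of cholesterol synthesis (0.891 and 0.821), Srebf2, the transcription factor that governs that pathway (0.824), Pidd1 (0.824) and 4921536K21Rik (0.815). The correlation of Psca with Hsd17b7 was 0.865 without 2 arrays, and the others lay between 0.760 (4921536K21Rik) and 0.848 (Pidd1). Hsd17b7 had log2 signals of 8.37, 8.76 and 9.05 in KO heme mice, against 7.58, 8.00 and 8.10 in KO control mice. These are the highest of 14390 values, and nothing was tested.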

How the data were processed

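Colon RNA of 23 mice was hybridised to Affymetrix Mouse Gene 1.1 ST arrays, using 100 ng from each mouse. The authors deposited log2 signals per probe set from Robust Multi-array Average (version not given in the sources used here), which entered unaltered. The study describes reorganised probe sets, which the table does not show. Names came from the platform annotation and were updated by Entrez number (21185 of 21218 probe sets with 1 symbol matched). Probe sets with several genes (1881) or none (12457) stayed out of the fit, and 1386 genes with several probe sets were read from the brightest. limma 3.58.1 (R 4.3.3) fitted the 4 groups in 1 model of 18820 genes, with all contrasts adjusted by Benjamini-Hochberg over all genes. Single genes were compared by two-sided exact permutation tests (scipy 1.17.1, numpy 2.4.6). The array medians lay between 5.80 and 5.90, arrays have no read depth, and their number limits the precision. The fit was tested on simulated data. The 3 genes and all 10 gene lists were chosen with earlier results of these data known. Named from each list were up to 4 called genes with the largest heme effect in each genotype, defining markers at low signal and some further genes, and for each member the 5 genes nearest by correlation. Alternatives were other filters, centring, array weights, a variance trend, separate fits of the compared groups, a two-way analysis of linear signal after the methods, a replicate block and each array left out. Mice came as separate animals, 1 array each.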

Additional observations from a re-analysis of the deposited data

Results flagged for a closer look

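On the log2 scale no value of Clca4b, Sprr1a or Psca stood apart in any group by Dixon's test, which was run on 36 groups of values and flags about 1 in 20 by chance. The linear signals of the 3 genes were not put to this test. For Clca4b that of KO control replicate 3 was 1746, against 125 to 566 in the other KO control mice. Among the marker lists, the summed linear signal of squamous epithelium markers was highest in WT heme replicate 1 at 1294, where the gap to the next mouse was 0.852 of the range. It was also set apart in KO control replicate 4 at 652.6 (gap 0.635 of the range). The summed signal of surface colonocyte markers was set apart as highest in KO control replicate 6 at 77004 (gap 0.639 of the range) and in WT control replicate 4 at 76793 (gap 0.734 of the range). In these last 3 mice Clca4b, Sprr1a and Psca lay inside the range of their groups or, for Sprr1a in KO control replicate 6, at its lowest value (7.01).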

How the results depend on the processing

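The heme effects of Clca4b, Sprr1a and Psca in KO mice kept their direction and their call under all 32 alternatives run, including each array left out. Clu in WT mice and Muc3 in KO mice each lost their call under 10 of the 32 alternatives. Among the other named genes, a fit of only the compared groups lost the calls of Sprr1b, Krt13 and Tff3 in WT mice and of Duoxa2 and Mmp9 in KO mice. On linear signal Trim29 in both genotypes, Duoxa2, Mmp9 and Mylk in KO mice and Plaur, Ly6d, Sprr1b, Krt13 and Sytl2 in WT mice lost theirs. With all probe sets in the fit Sprr1b, Krt13, Tff3 and Sytl2 did in WT mice, with centring Muc2 and Mylk in KO mice and Tff3 and Sytl2 in WT mice, and with the replicate block Tff3 and Sytl2 in WT mice. The cause was not tested. The number of genes called for KO against WT on heme was 44, and became 17 when only the compared groups were fitted, 70 with array weights, and 28 to 69 when an array was left out (28 without KO heme replicate 4 and 69 without KO heme replicate 1). For KO against WT on the control diet it was 10, and 18 with all probe sets, an alternative chosen after seeing the data. For the difference of heme effects it was 2, and 0 with the two-way analysis after the methods and 4 with all probe sets. The unadjusted p was under 0.05 for 1271 genes in that limma contrast. In that two-way analysis, on linear signal, the difference of heme effects of Clca4b was 696, opposite in sign to the -0.14 on the log2 scale, where leaving out arrays gave -0.44 to 0.32. Whether the replicate numbers pair the mice was not tested. Same-numbered arrays of different groups had correlations of -0.314 to 0.337 in their deviations from group means (median 0.0799, other numbers 0.00449), and 4 of 23 arrays correlated best with their own number. With a replicate block the heme effects in KO mice were 3.53 for Clca4b (adjusted p = 1.48e-05), 2.88 for Sprr1a (adjusted p = 2.06e-07) and 2.56 for Psca (adjusted p = 2.09e-09), with 3504 genes called in KO mice and 51 for KO against WT on heme. With 5 or 6 mice a group small genotype differences cannot be resolved.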
